A study of Mus musculus with 2 samples.

Results

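The expression of 60 genes of mitosis was compared between Bmi1 wild-type and Bmi1 null mouse embryonic fibroblasts (MEFs). The genes were chosen by role: kinases and cyclins of mitotic entry, spindle checkpoint, kinetochore, kinesin, chromosome condensation and cytokinesis genes, and subunits and partners of the anaphase-promoting complex (APC/C). Expression values were not used to choose them, but earlier results of these data were known when they were chosen. Of these 60 genes, 59 were represented among the 18194 genes with a probe set of their own on the array, and 58 were measured, that is, exceeded a floor of 100 in signal in one or both lines. Ccnb1, which encodes cyclin B1, had no probe set with its name, and the kinesin gene Kif15 was below the floor on both arrays (52 in wild-type and 67 in null cells). Sgol1, which encodes shugoshin, was found under its current symbol Sgo1.

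RNA was taken from 1 culture of each line, 1 Affymetrix array per line, without replicates. The wild-type line carried functional Bmi1, a Polycomb subunit that stimulates ubiquitylation of histone H2A, and the null line lacked it. The lines came from embryos of 1 litter, labelled C57BL/6, and both had been immortalised by overexpression of TBX2, so the control cells are not normal fibroblasts either, and neither line was treated. No test between genotypes was possible, and genotype, line, culture and array cannot be told apart. In bulk RNA, more cells in mitosis and more mitotic RNA per cell cannot be told apart either.

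A few values describe the arrays as a whole. At its brighter probe set Bmi1 read 9933 (wild-type) and 2146 (null), and 931 and 831 at the other; which part of the gene was deleted relative to these probes was not known here. Both lines are labelled male, but the Y-linked gene Eif2s3y read 1683 in wild-type cells and 23.3, under the floor, in null cells, and Uty (1187 and 26.5) and Kdm5d (712 and 15.3) did likewise. All 8 fibroblast markers examined were measured, with summed signals of 78436 (wild-type) and 103281 (null), but they went both ways. Col3a1 (4.38-fold) and Col1a1 (2.16-fold) were higher in null cells, and Thy1 was at least 3.75-fold lower. The chosen probe sets of the other 5 were within 1.5-fold. Among these 5, however, Col1a2 had log2 ratios (null over wild-type) of 1.36 and 1.54 at its other probe sets, and Fn1 one of -1.01. Of 12 markers of other cell types, 7 were measured, and Ptprc, Cd68, Pecam1, Krt18 and Myod1 were below the floor on both arrays. The summed signal over all 12 was 4346 and 4354, a near balance of large differences in opposite directions. Upk3b (188 and 1693, 9.01-fold) and Epcam (149 and 834, 5.59-fold) were higher in null cells, and Msln (3006 and 1031, 2.92-fold), Tubb3 (2.70-fold) and Cdh5 (at least 2.08-fold) were lower. The ratio of 3' to 5' signal, which is higher where RNA is degraded, was 1.20 (wild-type) and 1.15 (null) for beta-actin. The part of these differences in the results below was not tested, and with 1 array per line it cannot be told apart from that of genotype.

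Cells enter mitosis when the kinase Cdk1, bound to a B-type cyclin, becomes active. Kinetochores, protein assemblies built on the centromere, then attach chromosomes to a spindle of microtubules shaped by kinesin motors, and the spindle checkpoint delays separation until attachment is complete. The APC/C, a ubiquitin ligase, with its activator Cdc20 then marks securin and cyclin B for destruction, after which sister chromatids part and cytokinesis divides the cell. Many of these genes are transcribed mainly in the G2 and M phases, whereas core APC/C subunits are made throughout the cycle. In proliferating fibroblasts the transcripts of the periodic genes are therefore often read as a sign of cycling cells, whose share was not measured here.

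As a group, the mitotic genes had higher signal in Bmi1 null cells. At least 1.5-fold higher signal in null cells was found for 31 of the 58, against 12.5% of all 11766 measured genes, and 0 were at least 1.5-fold lower, against 12.0%. At least 2-fold higher signal was found for 10 of them, 17.2% of the members beside 5.73% of all measured genes, and 0 were at least 2-fold lower, beside 5.16%. The median log2 ratio (null over wild-type, as for every ratio given here) was 0.63, equal to 1.54-fold, whereas the median of all measured genes was 0.0060. Ratios above 0 were found for 51 members (50.6% of all measured genes had one), and below 0 for 7: Foxm1, Bub3, Cdca8, Smc2, Prc1, Racgap1 and Anapc7. The 10 genes past 2-fold were Cenpa, Kif20a, Kif20b, Kif23, Ccnb2, Mki67, Kif11, Cenpk, Kif18a and Cdca3.

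**Figure D1:**
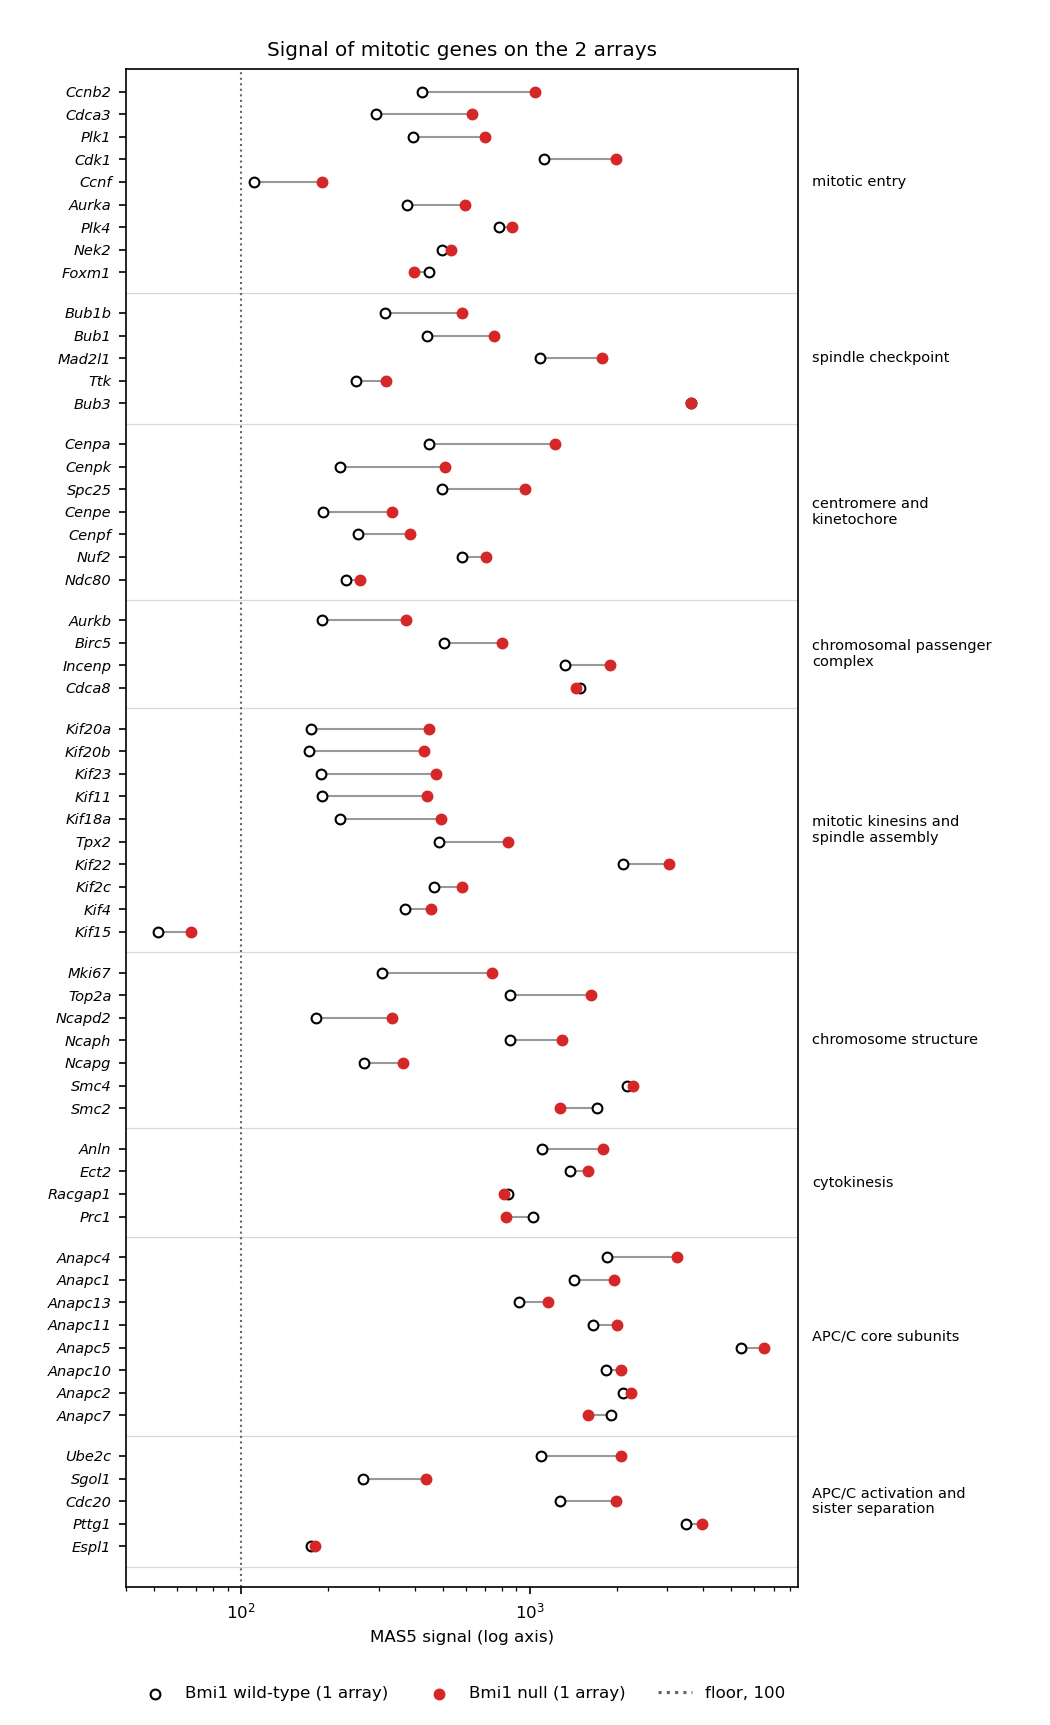
MAS5 signal (x axis, log scale) of the 59 members with a probe set, in rows grouped by role, on the wild-type array (open circles) and the null array (red), with a grey line joining the pair and the floor of 100 dotted. The red point lies to the right for 51 of the 58 measured genes, for example from 447 to 1228 for Cenpa, whereas Bub3 (3625 and 3615) does not move.

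Members with weak signal differed more. Among genes with a mean signal of 100 to 500 (geometric mean of both arrays), 16 of 22 members had a null signal at least 1.5-fold higher, against 15.4% of 4831 genes in that class. Between 500 and 1000 this was true of 7 of 13 members (12.9% of 2362 genes), and at 1000 or more of 8 of 23 (9.23% of 4573 genes). The member medians in these classes were 0.83, 0.67 and 0.33, and those of all genes 0.046, -0.020 and -0.017. The share among members was above that of all genes in each class, and all 10 members past 2-fold lay below a mean signal of 1000.

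The promoters of these genes carry sequences that the choice of members did not use. Genes of G2 and M phase are known to be controlled through the cell cycle genes homology region (CHR), with the letters TTTGAA or TTCGAA, which binds the DREAM and MuvB complexes, and through CCAAT boxes, bound by the factor NF-Y. Both motifs were searched on both strands in windows from 250 bases before to 50 bases after RefSeq start sites (GRCm38.p6). Matches to the motifs can share 1 base at their ends and then count for both. A window was held for 54 of the 60 members, and there was none here for Foxm1, Aurkb, Incenp, Kif20a, Tpx2 and Smc4. A CHR match was present in 36 of the 54 (66.7%), compared with 21.7% of all 27025 genes with a window and 15.9% of the 9526 measured on the array. A CCAAT match was present in 37 of 54 (68.5%), against 41.1% and 43.1%, and both motifs in 30 (55.6%), against 9.65% and 7.67%. Starting no more than 50 bases upstream of the start site or anywhere downstream of it, a CHR match was found in 32 members (59.3%), against 6.12% of all genes and 4.20% of measured genes.

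Core APC/C subunits differed from the rest of the members in these windows. A CHR match was present in 1 of the 8 (Anapc7), and in 35 of the 46 other members with a window (76.1%). Near the start site, the count was 0 of 8 and 32 of 46 (69.6%). The promoters below are shown with matches to either motif in capitals on the strand as printed (a match on the opposite strand reads TTCAAA or ATTGG). Ccnb2 (chr9:70421505-70421804, minus strand) and Cenpa (chr5:30666636-30666935, plus strand) are shown as members more than 2-fold higher in null cells. Kif23 (chr9:61946750-61947049, minus strand) and Racgap1 (chr15:99651607-99651906, minus strand) encode partners in 1 complex with unlike ratios, and Anapc4 (chr5:52833885-52834184, plus strand) is a core subunit with no match.
Ccnb2: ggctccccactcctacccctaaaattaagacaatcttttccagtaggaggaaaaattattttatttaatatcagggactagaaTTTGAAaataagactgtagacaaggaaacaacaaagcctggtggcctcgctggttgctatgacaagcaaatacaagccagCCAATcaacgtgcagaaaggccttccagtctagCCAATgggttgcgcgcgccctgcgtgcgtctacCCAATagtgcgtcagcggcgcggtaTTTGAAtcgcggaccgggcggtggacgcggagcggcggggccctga
Cenpa: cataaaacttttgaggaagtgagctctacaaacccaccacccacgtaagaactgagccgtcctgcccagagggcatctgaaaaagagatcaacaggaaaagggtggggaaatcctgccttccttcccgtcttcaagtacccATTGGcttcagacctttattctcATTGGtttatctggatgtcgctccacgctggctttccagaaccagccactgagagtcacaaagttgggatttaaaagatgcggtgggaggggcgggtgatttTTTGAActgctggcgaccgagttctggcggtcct
Kif23: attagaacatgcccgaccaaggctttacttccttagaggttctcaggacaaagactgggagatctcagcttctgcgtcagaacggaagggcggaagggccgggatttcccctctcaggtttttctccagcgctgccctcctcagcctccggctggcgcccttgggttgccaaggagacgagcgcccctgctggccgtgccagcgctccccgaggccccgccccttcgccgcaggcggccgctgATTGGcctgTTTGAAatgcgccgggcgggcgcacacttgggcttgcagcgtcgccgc
Racgap1: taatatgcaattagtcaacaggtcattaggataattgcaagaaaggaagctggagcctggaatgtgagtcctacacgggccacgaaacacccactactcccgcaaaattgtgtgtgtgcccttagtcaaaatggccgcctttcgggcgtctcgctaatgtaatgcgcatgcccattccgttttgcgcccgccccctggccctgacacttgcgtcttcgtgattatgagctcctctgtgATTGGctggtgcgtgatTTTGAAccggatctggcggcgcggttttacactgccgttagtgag
Anapc4: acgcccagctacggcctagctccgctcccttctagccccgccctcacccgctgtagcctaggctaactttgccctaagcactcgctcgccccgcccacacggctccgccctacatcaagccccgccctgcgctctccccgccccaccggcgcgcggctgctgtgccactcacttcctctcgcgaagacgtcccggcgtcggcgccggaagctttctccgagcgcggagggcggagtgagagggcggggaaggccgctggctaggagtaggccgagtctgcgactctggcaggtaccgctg

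In the Ccnb2 window the CHR match nearest the start began at position 5 (the start base is position 1) and was preceded by CCAAT matches at positions -21, -54 and -87. The Cenpa match began at position 17. The Kif23 and Racgap1 windows resembled each other, with a CHR match at positions 3 and 6 and a CCAAT match on the opposite strand at positions -7 and -12, yet Kif23 was 2.50-fold higher in null cells and Racgap1 read 840 and 814. Among measured members with a window, the median log2 ratio was 0.70 for the 35 with a CHR match and 0.33 for the 17 without. Without the APC/C core subunits these medians were 0.71 (34 genes) and 0.64 (10 genes), so among the other members the presence of the CHR letters hardly separated the ratios. For CCAAT the medians were 0.69 (36 genes with a match) and 0.40 (16 without). Without the APC/C core subunits they were 0.77 (33 genes) and 0.60 (11 genes). A CHR match stood in the windows of Smc2, Prc1, Cdca8 and Espl1, whose ratios ran from -0.43 to 0.051, and none in those of Kif18a and Cenpk, both more than 2-fold higher.

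**Figure D2:**
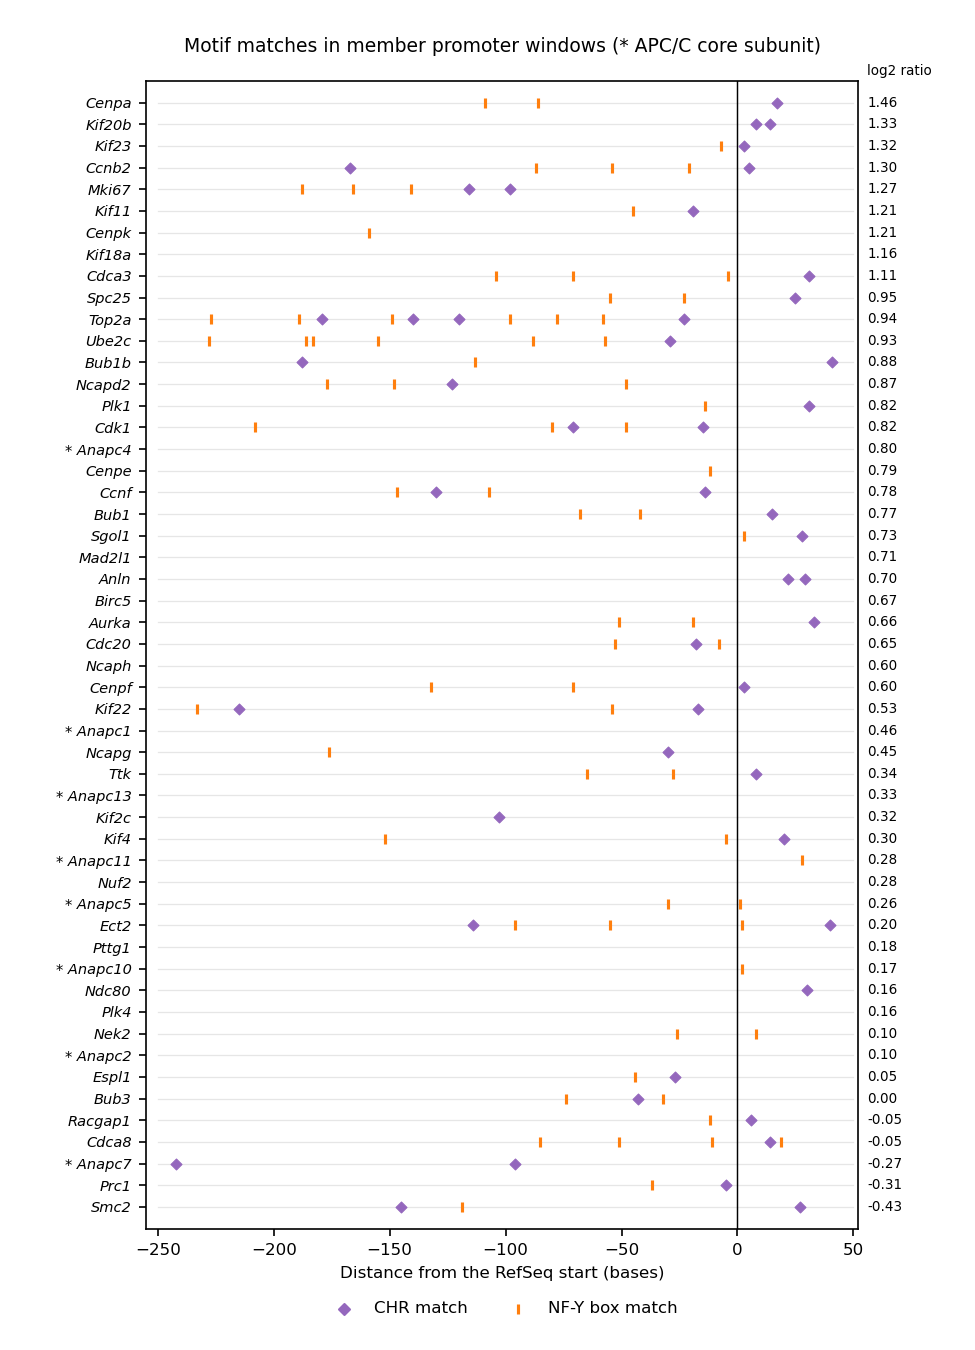
Positions of CHR matches (purple diamonds) and of NF-Y boxes, the CCAAT matches (orange bars), from 250 bases before to 50 bases after the RefSeq start (x axis, bases) in the windows of measured members, ordered by log2 ratio (printed at right); the window listed before others is drawn where a gene had several. Diamonds gather near the start from the top to the bottom of the list, while of the APC/C core subunits (asterisks) Anapc7 has diamonds, away from the start.

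Genes of mitotic entry had a median log2 ratio of 0.78, and 6 of its 9 genes were at least 1.5-fold higher. Ccnb2, a B-type cyclin that activates Cdk1, read 423 (wild-type) and 1042 (null, 2.46-fold higher). Cdk1 itself, the kinase that drives entry into mitosis, read 1123 and 1985 (1.77-fold). Cdca3, an F-box protein that promotes destruction of the Cdk1 inhibitor Wee1, read 293 and 634 (2.16-fold), but 2 further probe sets, under the floor in the wild-type line, gave bounds of at least 1.13-fold and at least 1.21-fold. These 3 genes were measured higher on the null array, as were the kinases Plk1 and Aurka. Plk1, which acts in centrosome maturation and spindle assembly, read 395 and 700 (1.77-fold), and Aurka, the centrosomal Aurora kinase, 376 and 596 (1.58-fold). Ccnf, an F-box cyclin, was near the floor at 111 and 191 (1.72-fold).

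The remaining 3 measured genes of the group differed less. Plk4, which controls centriole duplication, read 780 and 869 (1.11-fold), and Nek2, which separates centrosomes, 498 and 534 (1.07-fold). Foxm1, a forkhead factor that activates many G2 and M genes, was slightly lower at 448 and 396 (log2 ratio -0.18), and another Foxm1 probe set went the other way (at least 1.12-fold higher). The differences of these 3 genes were smaller than the spread between probe sets of 1 gene, whose SD was 0.35 on the log2 scale over 5318 gene pairs of probe sets and 0.30 over the 32 members with a pair.

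Spindle checkpoint genes had a median of 0.71, with 3 of 5 at least 1.5-fold higher. Bub1b (BubR1), which inhibits Cdc20 within the mitotic checkpoint complex, read 315 and 583 (1.85-fold, and 1.48-fold at another probe set). Bub1, the checkpoint kinase at the kinetochore, read 440 and 751 (1.71-fold), and Mad2l1, the Cdc20-binding protein Mad2, 1090 and 1780 (1.63-fold). The kinase Ttk (Mps1), which recruits the others, read 251 and 319 (1.27-fold). Bub3, which also has roles outside mitosis, read 3625 and 3615. Within the mitotic checkpoint complex (Bub1b, Bub3, Mad2l1 and Cdc20) the log2 ratios thus spanned 0.89, with Bub3 at the low end.

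Centromere and kinetochore genes all had ratios above 0, with a median of 0.79 over 7 genes and 5 of them at least 1.5-fold higher. Cenpa, the histone H3 variant that defines the centromere, had the highest ratio of any member, from 447 to 1228 (2.75-fold). Cenpk, a subunit of the inner kinetochore, read 220 and 507 (2.31-fold). Cenpe, a kinetochore motor that brings chromosomes to the spindle equator, read 192 and 333 (1.73-fold, and 1.26-fold at another probe set), and the large coiled-coil protein Cenpf 255 and 386 (1.51-fold). The NDC80 complex, which binds microtubules, was uneven. Its subunit Spc25 read 499 and 965 (1.93-fold), although another Spc25 probe set read 104 and 105. Nuf2 read 584 and 709 (1.21-fold) and Ndc80 232 and 259 (1.12-fold), whereas the partner of Spc25, Spc24, read 158 and 339 (2.14-fold).

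The chromosomal passenger complex corrects faulty attachments and later guides cytokinesis, and its 4 subunits had a median of 0.59. Its kinase Aurkb read 190 and 373 (1.96-fold), and another probe set gave at least 3.45-fold. Birc5 (survivin), which brings the complex to the centromere, read 504 and 802 (1.59-fold). The scaffold Incenp read 1331 and 1905 (1.43-fold), and Cdca8 (borealin) 1496 and 1446. No subunit but Cdca8 had a ratio below 0, and its 3 probe sets lay between -0.13 and 0.05.

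**Figure D3:**
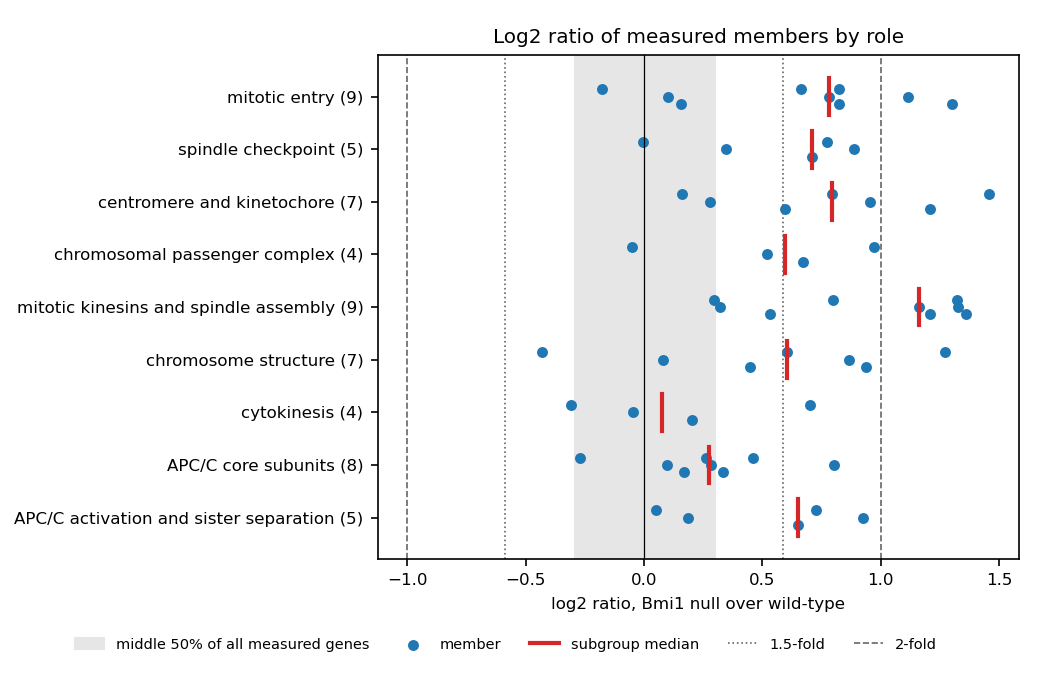
Log2 ratio, null over wild-type (x axis), of each measured member (blue points, jittered vertically) by role, with the number measured in parentheses, subgroup medians as red bars, 1.5-fold dotted, 2-fold dashed and the middle 50% of all measured genes in grey (-0.29 to 0.30). The kinesin and spindle group has the highest median with these probe sets (1.16), though not with the mean over probe sets (0.61, which takes in a lower bound) or without suffixed ones (0.51). The medians of the cytokinesis (0.077) and APC/C core groups (0.27) lie within the grey band.

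Mitotic kinesins and the spindle assembly factor Tpx2 had a median of 1.16, and 5 of the 9 were at least 2-fold higher. This median was the highest of the 9 groups with the chosen probe sets. It was not the highest with the mean over probe sets (0.61, beside 0.71 for the spindle checkpoint and 0.66 for mitotic entry). Nor was it without _s_at, _x_at and _a_at probe sets (0.51, beside 0.71 and 0.66). The 0.61 is the mean of Kif11, which takes in a lower bound. Kif20a (MKLP2), which relocates the passenger complex to the central spindle, read 174 and 447 (2.56-fold). Its relative Kif20b read 172 and 430 (2.51-fold), and Kif23 (MKLP1), the motor of centralspindlin, 189 and 474 (2.50-fold, with a bound of at least 1.49-fold at another probe set). Kif11 (Eg5), which pushes spindle poles apart, read 191 and 440 (2.31-fold), and Kif18a, which limits chromosome oscillation, 221 and 494 (2.24-fold). At the chosen probe sets these 5 motors differed by nearly the same factor, and each was weakly expressed in wild-type cells, with signals of 172 to 221. With the mean over probe sets the log2 ratios of Kif11 (0.61) and Kif23 (0.95) were below those of Kif20a (1.36), Kif20b (1.33) and Kif18a (1.16). However, the means of Kif11 and Kif23 take in lower bounds (at least 1.09-fold and at least 1.49-fold). Kif20a, Kif20b and Kif18a each had 1 measured probe set, so their values could not move. The 2.31-fold value of Kif11 rests on 1 probe set, since another above the floor on both arrays read 214 and 304 (1.42-fold).

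The other genes of the group differed less. Tpx2, which activates Aurka and nucleates microtubules, read 485 and 842 (1.74-fold), but its 4 probe sets ranged from -0.097 to 1.09 in log2 ratio. The chromokinesin Kif22 read 2106 and 3047 (1.45-fold), with log2 ratios at its other probe sets of -0.14 and 0.43. Kif2c (MCAK), which depolymerises microtubules, read 467 and 584 (1.25-fold), and its 3 probe sets lay between -0.52 and 0.32, so no direction can be given for it. Kif4, a chromokinesin that works with Prc1, read 370 and 455 (1.23-fold).

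Genes of chromosome structure had a median of 0.60 over 7 genes, with 4 at least 1.5-fold higher and Smc2 in the opposite direction. Mki67, the proliferation marker Ki-67 that coats mitotic chromosomes, read 308 and 742 (2.41-fold). Top2a, the topoisomerase that disentangles sister chromatids, read 852 and 1630 (1.91-fold). Condensin I, which compacts chromosomes, was divided between its subunits. The regulatory subunits read higher in null cells, with 183 and 333 for Ncapd2 (1.82-fold, and at least 1.02-fold at another probe set), 854 and 1297 for Ncaph (1.52-fold, and 379 and 387 at another) and 268 and 364 for Ncapg (1.36-fold, with a log2 ratio of 0.87 at another). The core ATPases, which condensin II shares, did not, since Smc4 read 2167 and 2289, and Smc2 was 1.35-fold lower (1714 and 1272). The other measured Smc2 probe sets were also lower, by 1.49-fold and by at least 1.41-fold. The range across condensin I was 1.30 on the log2 scale.

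Cytokinesis genes showed little common direction (median 0.077). Anln (anillin), which links actin and septins at the cleavage furrow, read 1103 and 1791 (1.62-fold, and at least 1.34-fold at another probe set). Ect2, the exchange factor that activates RhoA at the furrow, read 1383 and 1590 (1.15-fold). Racgap1, which binds Kif23 in centralspindlin, read 840 and 814, and 656 and 820 at another probe set. Prc1, which bundles microtubules of the central spindle, was 1.24-fold lower (1027 and 830) but 1.09-fold higher at another probe set (529 and 578). Within centralspindlin the log2 ratios of Kif23 and Racgap1 were therefore 1.37 apart, although with the mean over probe sets they were at 0.95 and 0.14. The Kif23 mean takes in a lower bound.

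The 8 core APC/C subunits among the members, which are not the whole complex, lay closer to the array as a whole in size. However, 7 of 8 had ratios above 0 (50.6% of all measured genes had one). Their median was 0.27, and 1 of 8 was at least 1.5-fold higher (12.5%, equal to the share of all measured genes). The exception was Anapc4, a scaffold subunit, which read 1858 and 3244 (1.75-fold, and 1.70-fold at its other probe set). Anapc1, the largest scaffold protein, read 1427 and 1965 (1.38-fold), but its 4 measured probe sets ranged from -0.16 to 0.46. Anapc13 read 922 and 1162 (1.26-fold). The catalytic pair, the cullin Anapc2 and the RING protein Anapc11, read 2104 and 2248 (1.07-fold) and 1652 and 2012 (1.22-fold), although another Anapc11 probe set had a log2 ratio of 0.70. Anapc10, which takes part in binding substrates, read 1836 and 2066 (1.13-fold). Anapc5 read 5400 and 6476, and its 6 probe sets agreed closely at 0.12 to 0.26. Anapc7 was 1.20-fold lower (1914 and 1588).

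Genes that activate the APC/C or lie downstream of it had a median of 0.65 over 5 genes. Cdc20, the mitotic activator, read 1271 and 1993 (1.57-fold, but 1.23-fold at another probe set above the floor on both arrays). Ube2c (UbcH10), the ubiquitin-conjugating enzyme that works with the APC/C, read 1095 and 2080 (1.90-fold). Sgol1 (shugoshin), which protects centromeric cohesin, read 265 and 438 (1.65-fold, and 1.63-fold at another probe set). Securin (Pttg1) and the protease that it restrains, separase (Espl1), differed little, at 3484 and 3958 (1.14-fold) and 174 and 181 (1.04-fold).

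How far these ratios depend on the probe set was examined within genes. At least 2 measured probe sets were available for 32 members: in 20 all ratios were above 0, in 2 all were below 0 (Smc2 and Bub3) and in 10 they lay on both sides. Of the 31 members at least 1.5-fold higher, 17 had 1 measured probe set. Of the remaining 14, all measured probe sets were at least 1.5-fold higher in 3 (Aurkb, Anapc4 and Sgol1), and all were above 0 in 13, Tpx2 being the exception. In 7 a probe set above the floor on both arrays was under 1.5-fold, and in 4 the values under 1.5-fold were lower bounds. The 49 measured probe sets that did not represent their gene had a median log2 ratio of 0.17, and 39 of them were above 0. Some of these values are bounds, and the 0.17 is itself a lower bound, from Cdc20 (36.4 and 112). Genes with many probe sets, such as Anapc5, also count several times in this pool, so its median is not like that of the members. Among the 14 members above, direction was shared more widely than size.

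**Figure D4:**
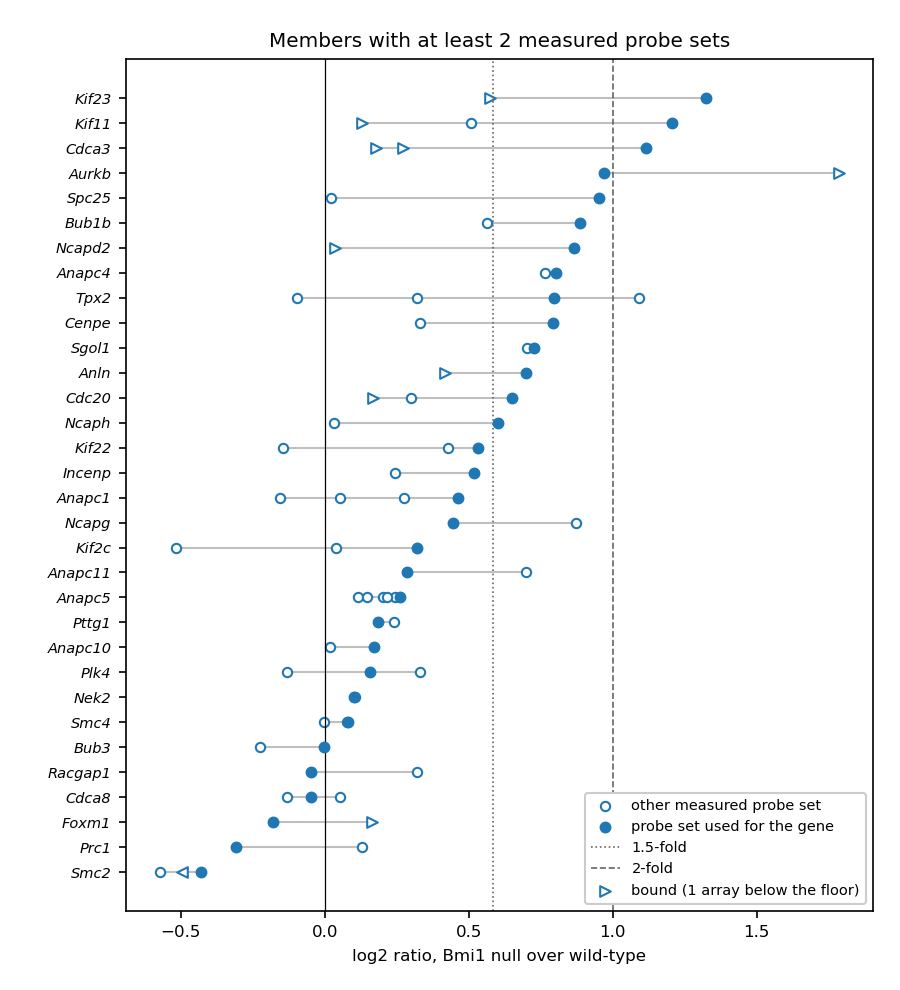
Log2 ratio, null over wild-type (x axis), at each measured probe set of the 32 members with at least 2, ordered by the ratio of the probe set used (filled points); open circles are other probe sets, and triangles are bounds, where 1 array was below the floor, and point the way the difference could be larger. Filled points lie to the right of the open circles for many genes, as for Spc25 (0.95 and 0.020), while Anapc4 (0.80 and 0.76) and Sgol1 (0.73 and 0.70) nearly coincide.

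Mitotic genes outside the 60 were compared from a separate list. In null cells 22 of the 91 with a measurement were higher by 1.5-fold or more and 0 were lower by as much, 65 had ratios above 0, and the median was 0.27. The shares of all measured genes are 12.5%, 12.0% and 50.6%. Among entry genes, Cdkn3, a phosphatase of cyclin-dependent kinases, read 130 and 386 (2.97-fold). Among kinetochore genes, Cenpp (123 and 425, log2 ratio 1.79, but 0.71 at its other measured probe set), Spc24 and Cenpl (102 and 207, 2.03-fold) were at least 2-fold higher. Depdc1a (221 and 538, 2.43-fold) and the spindle protein Hmmr (313 and 643, 2.05-fold) were so among spindle genes. The other measured Hmmr probe sets had log2 ratios of 0.47 to 0.79. Fbxo5 (Emi1), an inhibitor of the APC/C, read 140 and 290 (2.07-fold), whereas the alternative APC/C activator Fzr1 (Cdh1) read 616 and 613 and the E2 enzyme Ube2s was 1.18-fold lower. The other APC/C genes of that list lay between Fbxo5 and Ube2s. They were further subunits, with log2 ratios of 0.50 for Cdc23, 0.45 for Cdc16, 0.44 for Cdc27, 0.29 for Anapc15, 0.26 for Cdc26 and -0.043 for Anapc16.

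Cohesin and the remaining checkpoint genes differed less. Condensin II and cohesin genes had a median of 0.059 and 1 of 15 at least 1.5-fold higher, the acetyltransferase Esco2 (at least 1.81-fold, with a log2 ratio of 0.051 at its other probe set), with the cohesin loader Nipbl lowest at 1.33-fold lower (its 4 measured probe sets lay between -0.55 and -0.0050). None of the 8 other checkpoint genes was past 1.5-fold (median 0.16), from Trip13 (1.14-fold lower) to Zwilch (1.47-fold higher) at the chosen probe sets. The chosen probe set of Zwint, a kinetochore protein, was at 0.0032, but its other 5 measured probe sets lay between -0.79 and -0.58. Of 6 other cytokinesis genes (median -0.13), 2 were at least 1.5-fold higher and 0 were as much lower. The abscission protein Cep55 was 1.81-fold higher. Septin7 was 1.51-fold higher, but had log2 ratios of 0.036 and 0.22 at its other probe sets. The kinase Cit was 1.48-fold lower, with a log2 ratio of -0.066 at its other measured probe set. DNA replication genes serve the preceding S phase, and 8 of 22 were higher by 1.5-fold or more and 0 lower (median 0.28). Highest of these were Cdc6 (112 and 238, 2.13-fold), Rrm2 (2.10-fold) and Mcm6 (2.08-fold). The other measured probe sets of Rrm2 had log2 ratios of 0.82 and 1.22, and that of Mcm6 one of 0.60.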

How the data were processed

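The authors hybridised 1 Affymetrix Mouse Genome 430 2.0 array per line and derived the deposited intensity of each probe set with MAS5; the MAS5 name is from the submitters' processing notes, and detection calls are not used here. The 2% trimmed mean was 500 on both arrays, and a difference common to most transcripts is not seen. Of 45101 probe sets, 34958 had 1 gene symbol and 932 several, which named no gene. Where a gene had several, the probe set brightest on average (log2) stood for it. Signals below 0.2 times the trimmed mean (100) were raised to it before taking log2, and genes at or below it on both arrays were given no ratio. Folds against the floor are lower bounds, written as at least N-fold. With 1 array per group there is no test; folds past 1.5 and 2 are descriptive, and error is given as the spread between probe sets, which covers probe set error only. The number of arrays limits the precision. All members were accounted for. Named with both signals were members past 1.5-fold, the largest ratios of each subgroup and its extremes, members with disagreeing probe sets, and, from other lists, genes past 2-fold or else the extremes. The members, roles and lists were chosen with earlier results of these data known. The ratio script was tested on simulated data. Promoters came from RefSeq (GRCm38.p6). Alternatives were other floors, a pseudocount, other probe set rules and scalings. Python 3.11.15, pandas 2.3.3, numpy 2.4.6 and scipy 1.17.1 were used.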

Additional observations from a re-analysis of the deposited data

How the results depend on the processing

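All members past 1.5-fold in the main setting kept a ratio above 0 in each alternative that gave them one. In most alternatives this was fixed in advance. A change of floor or a pseudocount cannot reverse a ratio, and centring on the median gene shifted it by 0.0060. For the 17 of these members with 1 measured probe set, the other probe set rules gave the same value or none. In any alternative run, 0 members were at least 1.5-fold lower. The spread between probe sets (SD 0.35, log2) served as the error. The count at least 1.5-fold higher ran from 20 to 31, while the share of all genes ran from 7.46% (pseudocount) to 21.5% (no floor). The member count was 20 of the 45 genes left without _s_at, _x_at and _a_at probe sets (12.4% of all genes), where the median was 0.34. The main setting gave 25 and 0.65 for those 45 genes. The count at least 2-fold higher, 10 of 58 in the main setting, was 3 of 59 with a pseudocount of 100 and 5 of 45 without those suffixes. The shares of all genes past 2-fold were 5.73%, 3.07% and 5.69% in these settings. The kinesin median (1.16) was 0.79 with the pseudocount, 0.61 with the mean over probe sets and 0.51 without the suffixes. Without the suffixes the medians of the passenger complex, chromosome structure and cytokinesis groups were 0.15 (2 genes), 0.079 (5 genes) and 0.70 (1 gene). A pseudocount shrinks ratios of weak signals by construction. The mean over probe sets takes in bounds, which understate the difference at those probe sets. The cause of the other shifts was not tested. The median of all genes moved to no more than 0.045. Of single-member values, 15 moved by more than that SD, and the ratios of Kif2c (-0.053, mean over probe sets) and Kif22 (-0.14, without the suffixes) turned below 0. No paired analysis was possible because each group had 1 array.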
